A study of Mus musculus with 54 samples.

Results

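The genes described here are 7 genes of fatty acid synthesis around Fasn: Fasn, Acly, Acss2, Me1, Slc25a1, Thrsp and Pnpla3. They were chosen by gene symbol, and all 7 were among the 13815 genes measured in mouse liver by RNA-seq. The study asked how the liver changes when the Flcn gene is deleted in hepatocytes, on chow and on diets that induce fatty liver disease. Every mouse was Flcn lox/lox and received an adeno-associated virus of serotype 8. LiFKO mice received AAV8-TBG-Cre, in which the hepatocyte promoter TBG drives Cre, and Control mice received AAV8-TBG-GFP. Mice labelled DKO were Flcn lox/lox; Tfe3 -/Y, without Tfe3 in any cell of the body, and received AAV8-TBG-Cre.

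RNA-seq covered 5 groups of 3 libraries: DKO, LiFKO and Control on AMLN diet, which is rich in fat, fructose and cholesterol, and LiFKO and Control on normal chow. These mice received 1.5e11 genome copies of virus, ate their diet for 17 to 18.5 weeks and were fasted for 4 to 6 hours. No DKO mice on chow and no mice without Tfe3 alone were measured by RNA-seq, so mouse line and genotype cannot be told apart in the libraries labelled DKO. ChIP-seq maps where a protein sits on DNA. It covered TFE3 in freely fed LiFKO and Control livers on chow, with 1.5e11 genome copies of Cre or GFP virus. On FPC diet, which holds fructose, palmitate and cholesterol and was fed for 9 days, it covered TFE3 in LiFKO and Control livers with 2.5e11 genome copies of Cre or GFP virus. It also covered TFE3 and the HA tag in livers called LiFKO+1c and Control+1c, which received 1.5e11 genome copies of Cre or GFP virus and 1.0e11 of a virus for HA-nSREBP-1c. The ApoE/AAT promoter, active in liver, drives that virus, and HA-nSREBP-1c is a tagged form of SREBP-1c that is active in the nucleus without cleavage.

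Hepatocytes make fatty acids from citrate that leaves the mitochondrion. The carrier encoded by Slc25a1 exports the citrate, ATP citrate lyase (Acly) splits it into acetyl-CoA, and acetyl-CoA synthetase (Acss2) adds acetyl-CoA made from acetate. Malic enzyme (Me1) provides NADPH, and fatty acid synthase (Fasn) builds palmitate from these precursors. Thrsp encodes Spot 14, a small protein that responds to thyroid hormone and promotes lipogenesis, and Pnpla3 encodes a protein of lipid droplets. In liver, SREBP-1c and ChREBP are known as the main activators of such genes, in response to insulin and sugar. Folliculin, the product of Flcn, lets the kinase mTORC1 phosphorylate TFE3 and so keeps this transcription factor out of the nucleus.

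The promoters of 5 of the genes are shown because HA-nSREBP-1c peaks lay at the starts of the first 4, while Me1 had no HA peak within 50 kb. They are RefSeq sequences of build GRCm38.p6, 5′ to 3′ on the strand of the gene, with 250 bases before and 50 after the start. Capitals mark matches to CCAAT, to GGGCGG or to CACGTG on either strand. The window of Fasn is chr11:120824498-120824797 (minus strand), that of Acly chr11:100527951-100528250 (minus), that of Acss2 chr2:155517793-155518092 (plus), that of Slc25a1 chr16:17928170-17928469 (minus) and that of Me1 chr9:86695865-86696164 (minus).
Fasn: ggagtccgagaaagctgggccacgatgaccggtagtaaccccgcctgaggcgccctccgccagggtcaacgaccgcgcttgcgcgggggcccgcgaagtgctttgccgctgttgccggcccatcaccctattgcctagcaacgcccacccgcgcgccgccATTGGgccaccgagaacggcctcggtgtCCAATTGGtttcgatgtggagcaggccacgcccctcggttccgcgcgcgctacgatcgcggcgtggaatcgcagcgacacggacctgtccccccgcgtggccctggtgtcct
Acly: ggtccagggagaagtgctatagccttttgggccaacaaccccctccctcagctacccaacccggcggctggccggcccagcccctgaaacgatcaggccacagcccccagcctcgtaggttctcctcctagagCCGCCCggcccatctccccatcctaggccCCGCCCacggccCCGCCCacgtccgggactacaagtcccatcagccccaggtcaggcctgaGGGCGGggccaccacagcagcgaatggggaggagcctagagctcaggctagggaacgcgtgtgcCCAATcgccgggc
Acss2: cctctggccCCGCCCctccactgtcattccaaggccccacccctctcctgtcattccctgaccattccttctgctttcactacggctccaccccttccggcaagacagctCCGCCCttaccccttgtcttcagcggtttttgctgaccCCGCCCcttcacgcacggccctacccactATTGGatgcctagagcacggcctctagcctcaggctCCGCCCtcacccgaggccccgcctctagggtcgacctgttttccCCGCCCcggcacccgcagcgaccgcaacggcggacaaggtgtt
Slc25a1: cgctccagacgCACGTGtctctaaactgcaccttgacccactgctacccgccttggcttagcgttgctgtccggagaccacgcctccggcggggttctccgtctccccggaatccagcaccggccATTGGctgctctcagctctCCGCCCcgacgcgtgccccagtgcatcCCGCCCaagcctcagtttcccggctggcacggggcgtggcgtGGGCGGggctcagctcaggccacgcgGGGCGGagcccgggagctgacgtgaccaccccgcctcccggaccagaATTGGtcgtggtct
Me1: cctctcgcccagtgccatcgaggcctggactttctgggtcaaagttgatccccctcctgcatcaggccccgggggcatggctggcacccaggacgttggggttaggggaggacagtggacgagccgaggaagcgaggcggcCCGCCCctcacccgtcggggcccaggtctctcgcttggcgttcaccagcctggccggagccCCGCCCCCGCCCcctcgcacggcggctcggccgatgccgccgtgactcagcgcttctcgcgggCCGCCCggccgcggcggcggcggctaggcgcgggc

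CCAAT, the box bound by NF-Y, was in the promoters of 6 of the 7 genes and in 37.4% of 32851 mouse promoters of the same length; the promoter of Me1 had none. Fasn held 3 matches that began at -90, -62 and -59 from the start, the last 2 overlapping. GGGCGG, the core of an Sp1 site, was in 5 of the 7, in Acly, Acss2, Me1, Slc25a1 and Pnpla3, and in 35.7% of all promoters. The E-box CACGTG was in the window of Slc25a1 at -239 and in 7.15% of all promoters. TCACGTGA, the form of the E-box known for TFE3 and its relatives, was in 0 of the 7 windows and in 0.974% of all promoters. The sterol element TCACCCCAC was in 0 windows and in 0.551% of all promoters, and its looser form TCACNCCAC in 0 and 1.24%. The 7 windows had 54.3% to 74.7% GC, against a median of 52.7% over all promoters.

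Expression values are the authors' log2 values, quantile normalized with an offset that is not stated, so levels are compared within a gene and the depth is unknown. Flcn was 10.55, 10.14 and 10.53 in the chow LiFKO libraries, against 11.33, 11.55 and 11.44 in chow Control. On AMLN diet it was 9.12, 9.45 and 9.91 in the libraries labelled DKO and 10.25, 10.56 and 10.43 in LiFKO, against 10.98, 10.92 and 11.06 in Control. LiFKO libraries and those labelled DKO lay below the Control libraries of their diet without overlap, which fits the labels in direction. Other cells of the liver keep Flcn. On AMLN diet LiFKO differed from Control by -0.57 (SE 0.17, limma adjusted p = 0.0257). That adjusted p was under 0.05 in 2 of 6 fits that left out a library. The libraries labelled DKO also lay below AMLN LiFKO (difference -0.925, SE 0.17), although both received the same dose of Cre virus. The cause was not tested. Tfe3 was 10.20, 9.88 and 9.89 in the libraries labelled DKO, against 9.92, 10.02 and 10.07 in AMLN LiFKO, and a value over the whole gene does not check the deletion. Replicates correlated at 0.971 to 0.988 over all genes, and AMLN Control replicate 3 had the lowest library weight, 0.481. The labels do not say that libraries came from separate mice, so p-values measure the spread between these libraries. In bulk liver, fewer cells of a type and less RNA per cell cannot be told apart.

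With Flcn loss all 7 differences were negative on both diets; the difference between the diets was called for 1 of the 7, Fasn. In AMLN LiFKO against AMLN Control, 7 of 7 genes fell (limma, Benjamini-Hochberg adjusted p under 0.05), where 9.63% of all genes fell. In chow LiFKO against chow Control 3 of 7 fell, Fasn, Acss2 and Slc25a1, where 13.2% of all genes fell. AMLN diet raised 6 of 7 in Control, all but Acly, where 11.2% of all genes rose, and 2 of 7 in LiFKO, Fasn and Thrsp, where 1.58% rose. In libraries labelled DKO 4 of 7 were higher than in AMLN LiFKO, namely Fasn, Acss2, Me1 and Slc25a1, where 5.05% of all genes were. Against AMLN Control 1 of 7, Fasn, was lower in those libraries, where 0.203% of all genes were. Without regard to the test, LiFKO libraries lay wholly below Control libraries for 7 of 7 genes on AMLN diet (18.3% of all genes) and for 3 of 7 on chow, Acly, Acss2 and Slc25a1 (23.3% of all genes). Libraries labelled DKO lay wholly above AMLN LiFKO for 6 of 7 genes, all but Pnpla3 (15.3% of all genes), and wholly below AMLN Control for 3 of 7, Fasn, Acss2 and Slc25a1 (8.09% of all genes). The median difference over the 7 genes was -0.78 for LiFKO on chow, -1.36 for LiFKO on AMLN diet and 1.10 for DKO against LiFKO, while over all genes it was -0.05, -0.02 and 0.02. It was 2.53 for AMLN diet in Control, 0.97 for AMLN diet in LiFKO and -0.38 for DKO against Control, while over all genes it was -0.04, 0.01 and 0.01.

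**Figure D1:**
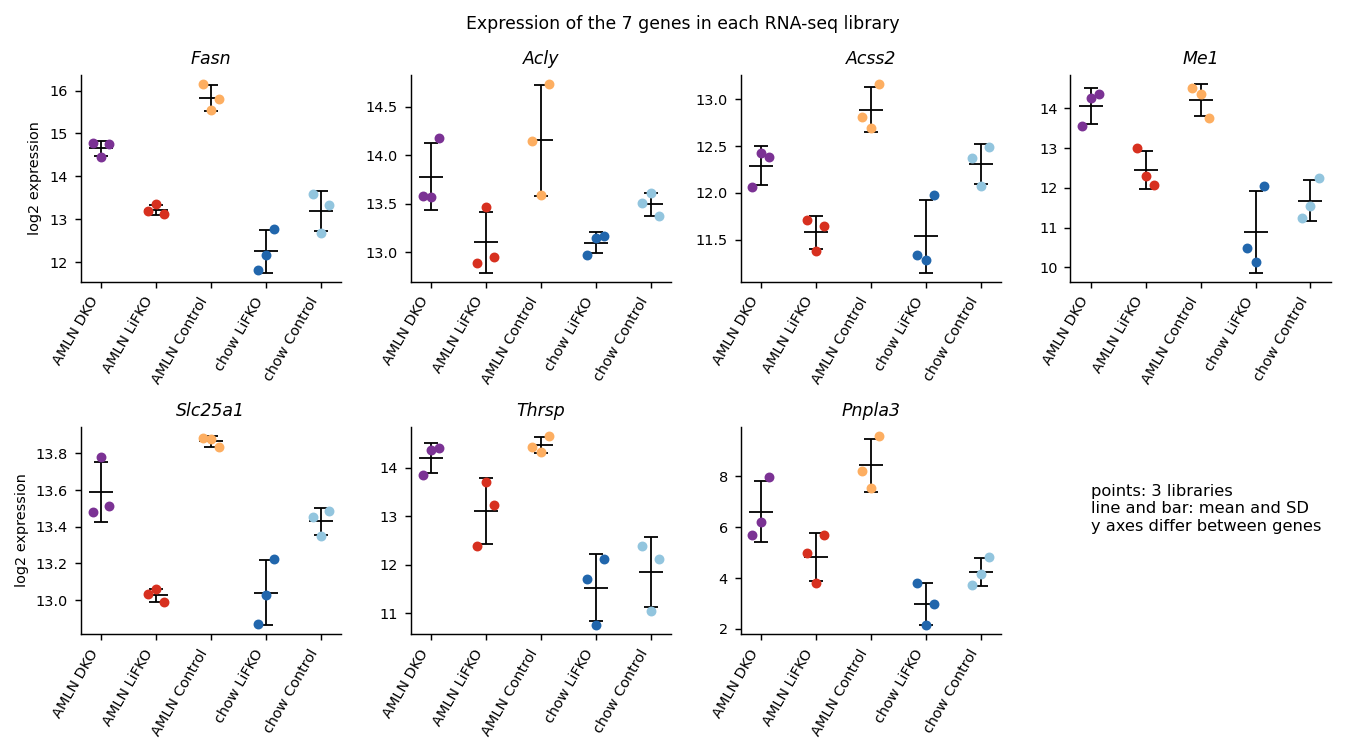
Log2 expression of the 7 genes in 5 groups of liver libraries. Points are libraries, and the line and bar give the mean and SD of 3. In AMLN LiFKO every gene lies below AMLN Control without overlap, and Fasn in the libraries labelled DKO lies between the AMLN LiFKO and AMLN Control libraries.

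Fasn, which encodes the enzyme that assembles palmitate (ENSMUSG00000025153, mm9 chromosome 11, 120667254 to 120685492, minus strand), was the 1 gene of the 7 that was called in all 7 comparisons made. On AMLN diet its log2 values were 14.77, 14.45 and 14.74 in the libraries labelled DKO and 13.20, 13.35 and 13.13 in LiFKO, against 16.15, 15.55 and 15.81 in Control. On chow they were 11.81, 12.17 and 12.78 in LiFKO, against 13.58, 12.68 and 13.34 in Control. The AMLN groups stood in separate ranges, whereas 1 chow LiFKO library was above 1 chow Control library.

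Fasn fell by 2.61 on AMLN diet in LiFKO (SE 0.24, adjusted p = 6.27e-06), 6.11-fold on the linear scale, to a mean of 13.23 ± 0.11 in LiFKO against 15.84 ± 0.30 in Control (SD, n = 3 each). On chow it fell by 0.95 (SE 0.24, adjusted p = 0.0102). The chow call was lost without chow LiFKO replicate 1, where the difference was -0.725 (adjusted p = 0.0526), or without chow Control replicate 1, where it was -0.76 (adjusted p = 0.0531). The difference of the LiFKO effects, AMLN minus chow, was -1.67 (SE 0.34, adjusted p = 0.0346). Of the 7 genes, Fasn was the 1 called for this difference, and 0.760% of all genes were called in that direction. The call was lost in 9 of 12 fits that left out a library, with differences of -1.89 to -1.40 over the 12, and it held without chow LiFKO replicate 1, chow Control replicate 1 or AMLN Control replicate 3.

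AMLN diet raised Fasn by 2.63 in Control (SE 0.24, adjusted p = 2.72e-05) and by 0.97 in LiFKO (SE 0.24, adjusted p = 0.0423). The LiFKO call held in 1 of 6 fits that left out a library, the one without chow LiFKO replicate 3, with differences of 0.75 to 1.23 over the 6. It was lost without replicate 1 or 2 of chow LiFKO or any AMLN LiFKO replicate. In the libraries labelled DKO, Fasn was higher than in AMLN LiFKO by 1.43 (SE 0.24, adjusted p = 0.00163), a call kept in 6 of 6 such fits. It was lower than in AMLN Control by 1.18 (difference -1.18, SE 0.24, adjusted p = 0.0421), a call lost without AMLN Control replicate 1 (-1.03) or 3 (-1.20) or DKO replicate 2 (-1.08) or 3 (-1.23).

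The genes that supply acetyl-CoA had smaller LiFKO differences than Fasn on AMLN diet; the difference between genes was not tested. Acly (ENSMUSG00000020917, mm9 chromosome 11, 100337667 to 100389314, minus strand) was 13.58, 13.57 and 14.17 in the libraries labelled DKO and 12.89, 13.47 and 12.96 in AMLN LiFKO, against 14.14, 13.59 and 14.73 in AMLN Control. Its level in AMLN LiFKO was below that in Control without overlap (difference -1.05, SE 0.24, adjusted p = 0.00589). On chow it was 12.97, 13.15 and 13.17 in LiFKO, against 13.51, 13.61 and 13.37 in Control. These chow ranges did not overlap either, but the difference of -0.40 was not called (SE 0.24, adjusted p = 0.243); it was called when only the compared groups were fitted (adjusted p = 0.0152). The difference between AMLN and chow Control was 0.66 (SE 0.24, adjusted p = 0.0583) and turned on 1 library, being 0.94 without AMLN Control replicate 2 (adjusted p = 0.0126) and 0.37 without AMLN Control replicate 3 (adjusted p = 0.21). In the libraries labelled DKO, Acly was 0.67 above AMLN LiFKO (SE 0.24, adjusted p = 0.087) without overlap.

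Acss2, on the acetate route (ENSMUSG00000027605, mm9 chromosome 2, 155343684 to 155411460, plus strand), fell with Flcn loss on both diets. The chow values were 11.34, 11.28 and 11.98 in LiFKO, against 12.37, 12.07 and 12.49 in Control. On AMLN diet it was 12.06, 12.43 and 12.39 in the libraries labelled DKO and 11.70, 11.38 and 11.65 in LiFKO, against 12.81, 12.70 and 13.17 in Control. LiFKO libraries were below all Control libraries of their diet, and on AMLN diet the libraries labelled DKO lay between. The fall was 0.78 on chow (SE 0.18, adjusted p = 0.00614) and 1.31 on AMLN diet (SE 0.18, adjusted p = 0.000181), and both calls held in 6 of 6 fits that left out a library. AMLN diet raised it by 0.58 in Control (SE 0.18, adjusted p = 0.0348), a call lost without AMLN Control replicate 1 (0.62) or 3 (0.44) or chow Control replicate 1 (0.61) or 2 (0.46). The difference between diets in LiFKO was 0.04 (95% interval -0.35 to 0.43, adjusted p = 0.935). Acss2 was also higher in the libraries labelled DKO than in AMLN LiFKO (difference 0.72, SE 0.18, adjusted p = 0.0216), but not without AMLN LiFKO replicate 2 (0.62) or DKO replicate 2 (0.65) or 3 (0.67).

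Slc25a1, the citrate exporter (ENSMUSG00000003528, mm9 chromosome 16, 17925304 to 17928312, minus strand), had the narrowest replicate spread of the 7, with SDs of 0.03 to 0.18. On AMLN diet it was 13.48, 13.78 and 13.51 in the libraries labelled DKO and 13.03, 13.06 and 12.99 in LiFKO, against 13.89, 13.88 and 13.83 in Control. On chow it was 12.87, 13.03 and 13.22 in LiFKO, against 13.45, 13.35 and 13.49 in Control. All these pairs of groups within a diet stood apart. Flcn loss lowered it by 0.84 on AMLN diet (difference -0.84, SE 0.10, adjusted p = 3.48e-05) and on chow (difference -0.39, SE 0.10, adjusted p = 0.00807), and AMLN diet raised it by 0.44 in Control (SE 0.10, adjusted p = 0.00611). In the libraries labelled DKO it was 0.56 higher than in AMLN LiFKO (SE 0.10, adjusted p = 0.00162). These 4 calls held in every fit that left out a library of the groups compared. The difference between diets in LiFKO was -0.01 (95% interval -0.22 to 0.19, adjusted p = 0.959).

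Me1, a cytosolic source of NADPH (ENSMUSG00000032418, mm9 chromosome 9, 86474970 to 86589947, minus strand), rose with AMLN diet in Control and fell with Flcn loss on that diet. On AMLN diet it was 13.55, 14.27 and 14.37 in the libraries labelled DKO and 12.99, 12.30 and 12.07 in LiFKO, against 14.52, 14.37 and 13.75 in Control. The chow values were 10.48, 10.14 and 12.06 in LiFKO, against 11.24, 11.54 and 12.25 in Control. Chow LiFKO replicate 3 lay within the chow Control range, far above the other chow LiFKO libraries. AMLN diet raised Me1 by 2.53 in Control (SE 0.43, adjusted p = 0.00138), and Flcn loss on AMLN diet lowered it by 1.76 (SE 0.43, adjusted p = 0.009); both calls held in 6 of 6 fits that left out a library. In the libraries labelled DKO it was 1.61 higher than in AMLN LiFKO (SE 0.43, adjusted p = 0.0249), a call lost without AMLN LiFKO replicate 2 (1.54) or 3 (1.42) or DKO replicate 2 (1.51) or 3 (1.46). The chow LiFKO difference of -0.79 was not called (SE 0.43, adjusted p = 0.2); without chow LiFKO replicate 3 it was -1.37 and called (adjusted p = 0.0112), while it was -0.41 without chow LiFKO replicate 2 (adjusted p = 0.56) and -0.50 without chow Control replicate 3 (adjusted p = 0.498). The diet difference in LiFKO was 1.56 (adjusted p = 0.0566), and 2.14 without that library (adjusted p = 0.00888).

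Thrsp, which encodes Spot 14 (ENSMUSG00000035686, mm9 chromosome 7, 104561448 to 104566240, minus strand), rose with the diet in both genotypes. On AMLN diet it was 13.85, 14.36 and 14.41 in the libraries labelled DKO and 12.38, 13.71 and 13.23 in LiFKO, against 14.42, 14.33 and 14.65 in Control. On chow it was 11.71, 10.76 and 12.11 in LiFKO, against 12.39, 11.04 and 12.13 in Control, and these ranges overlapped. AMLN diet raised it by 2.61 in Control (SE 0.39, adjusted p = 0.000682) and by 1.58 in LiFKO (SE 0.39, adjusted p = 0.039). The call in LiFKO was lost without AMLN LiFKO replicate 2 (1.28) or 3 (1.51) or chow LiFKO replicate 1 (1.67) or 2 (1.20). Flcn loss lowered it by 1.36 on AMLN diet (SE 0.39, adjusted p = 0.0223), a call lost without AMLN LiFKO replicate 1 (-0.995) or AMLN Control replicate 1 (-1.38) or 3 (-1.27). The chow LiFKO difference was -0.33 (95% interval -1.15 to 0.50, adjusted p = 0.592). In the libraries labelled DKO Thrsp was 1.10 above AMLN LiFKO (SE 0.39, adjusted p = 0.087), and the ranges did not overlap.

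Pnpla3, the lipid droplet gene (ENSMUSG00000041653, mm9 chromosome 15, 83998246 to 84019942, plus strand), had the largest differences and the widest spread of the 7. Of its 15 values 13 were below the lower quartile of their library, where equal ranks give equal values under quantile normalization. On AMLN diet it was 5.68, 6.20 and 7.98 in the libraries labelled DKO and 4.98, 3.81 and 5.68 in LiFKO, against 8.20, 7.55 and 9.58 in Control. The chow values were 3.81, 2.16 and 2.97 in LiFKO, against 3.73, 4.14 and 4.82 in Control. AMLN Control stood above the other groups except for 1 library labelled DKO. Pnpla3 fell by 3.62 in AMLN LiFKO (SE 0.70, adjusted p = 0.00209), and AMLN diet raised it by 4.21 in Control (SE 0.70, adjusted p = 0.00125), both in 6 of 6 fits that left out a library. The difference was -1.25 for LiFKO on chow (SE 0.70, adjusted p = 0.214), 1.84 for diet in LiFKO (adjusted p = 0.148) and 1.79 for DKO against LiFKO (adjusted p = 0.12), and none was called.

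**Figure D2:**
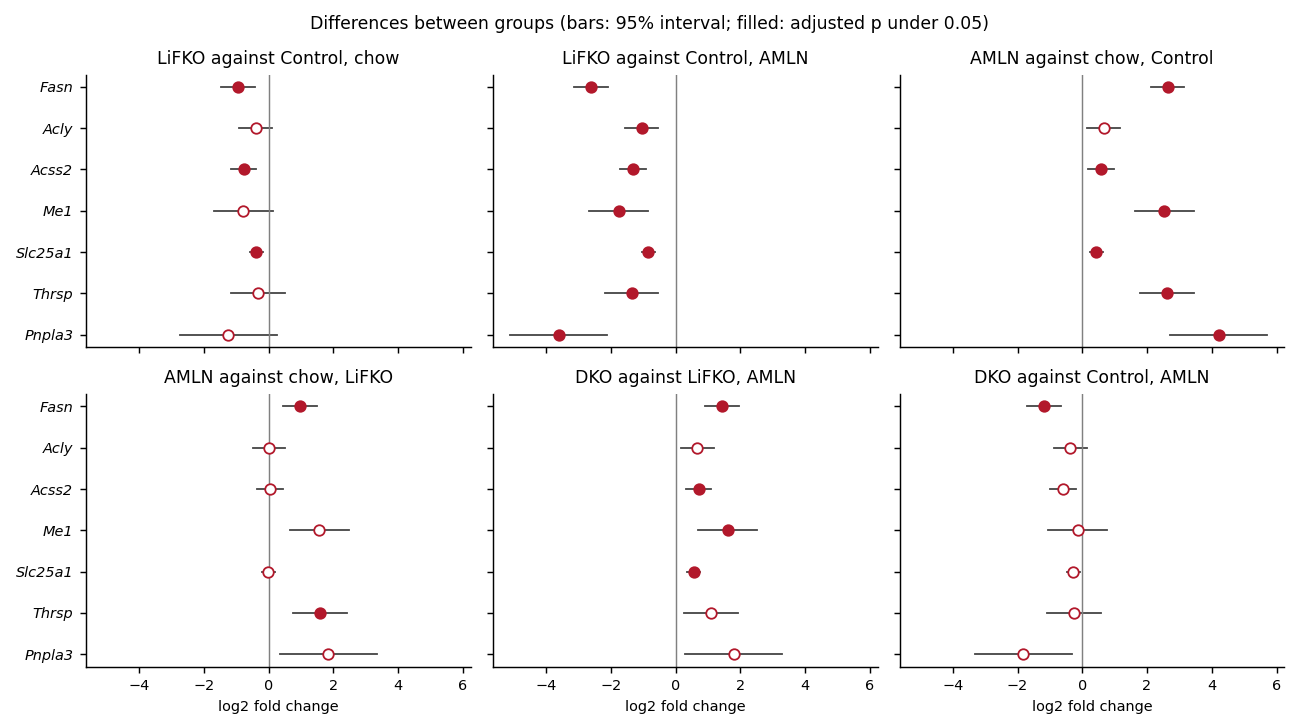
Log2 fold changes of the 7 genes in 6 comparisons, with 95% intervals; filled points have a limma adjusted p under 0.05. All 7 intervals of LiFKO against Control on AMLN diet lie below 0, and in DKO against LiFKO all 7 lie above 0, with 4 genes called.

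The libraries labelled DKO were intermediate for the genes in different degrees. Against AMLN Control, Me1 differed by -0.15 (95% interval -1.06 to 0.76), Thrsp by -0.26 (-1.09 to 0.56) and Acly by -0.38 (-0.88 to 0.13). Single libraries moved these values: over the fits that left out 1, Me1 ran from -0.375 to 0.11, Thrsp from -0.36 to -0.08 (lowest in size without DKO replicate 1) and Acly from -0.66 without AMLN Control replicate 2 to -0.09 without AMLN Control replicate 3. Acss2 at -0.60 (adjusted p = 0.161) and Slc25a1 at -0.275 (adjusted p = 0.216) were lower than AMLN Control without overlap but were not called, and Pnpla3 differed by -1.82 (adjusted p = 0.269). Both DKO comparisons use the same DKO libraries, so their values are not independent. In order of group means, chow LiFKO was lowest for 6 genes and AMLN LiFKO for Slc25a1, where the 2 lay 0.01 apart, and AMLN Control was highest for all 7. At the low end of that order, ranges of neighbouring groups overlapped for each gene. AMLN Control stood clear of the next group in Fasn, Acss2 and Slc25a1, and overlapped it in Acly, Me1, Thrsp and Pnpla3.

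Markers of other cells moved with some of these differences. The summed level of 8 hepatocyte markers was 21.07 to 21.55 in chow LiFKO, against 21.97 to 22.03 in chow Control, and 21.35 to 21.41 in AMLN LiFKO, against 21.93 to 22.07 in AMLN Control; in libraries labelled DKO it was 21.93 to 21.98. On chow 1 of the 8, Alb, fell and 1, Ass1, rose, and on AMLN diet Ass1 rose and 0 fell. The summed level gives most weight to the markers of highest level, so it need not describe all 8. Alb had the largest fall in LiFKO, with differences of -1.002 on chow and -0.819 on AMLN diet. The median difference over the 8 markers was -0.11 on chow and -0.05 on AMLN diet. The share of Alb in the summed level was not tested. Of 6 adipocyte markers Fabp4 and Cfd were measured, and the others were not analysed here. Their summed level was 9.50 to 11.22 in libraries labelled DKO and 8.90 to 9.37 in AMLN LiFKO, against 10.62 to 10.76 in AMLN Control, and it was 8.19 to 8.61 in chow LiFKO, against 8.71 to 9.03 in chow Control. On AMLN diet Fabp4, which lipid-laden hepatocytes can also express, was lower in LiFKO than in Control (difference -1.59, SE 0.29, adjusted p = 0.00158). The summed level of 5 endothelial markers was 13.76 to 14.00 in chow LiFKO, against 13.28 to 13.67 in chow Control, and 13.62 to 13.86 in libraries labelled DKO and 14.07 to 14.10 in AMLN LiFKO, against 13.31 to 13.44 in AMLN Control. Of these 5, Stab2 was called higher in LiFKO than in Control on AMLN diet (1.45, SE 0.135) and on chow (1.02, SE 0.135). Lyve1 was called higher on chow (1.33, SE 0.27) and not on AMLN diet. Pecam1, Kdr and Clec4g were not called on either diet. Stab2 was called lower in the libraries labelled DKO than in AMLN LiFKO (difference -0.65, SE 0.14) and higher than in AMLN Control (0.80, SE 0.14). The summed levels of macrophage, stellate, cholangiocyte and erythroid markers, and the level of the 1 lymphocyte marker measured of 5, overlapped between LiFKO and Control on AMLN diet, apart from cholangiocyte markers, at 10.40 to 11.90 in LiFKO against 12.07 to 12.68 in Control. On chow they overlapped too, apart from erythroid markers, at 14.45 to 15.15 in LiFKO against 15.26 to 16.41 in Control. Single markers of these lists were called even so. Cd68 was higher in LiFKO than in Control on AMLN diet (0.98, SE 0.27) and on chow (2.22, SE 0.27). The other 5 macrophage markers measured were not called on either diet and differed in both directions. Cd68 was also called lower in the libraries labelled DKO than in AMLN LiFKO (difference -1.48, SE 0.27). On AMLN diet Col1a1 (-1.525, SE 0.44), Sox9 (-1.15, SE 0.38) and Alas2 (-0.94, SE 0.15) were lower in LiFKO. On chow Alas2 (-1.13), Hbb-b2 (-1.49) and Hbb-b1 (-1.28) were lower in LiFKO.

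Markers also moved with the diet in Control. Of 8 hepatocyte markers 5 fell, Ass1, Cps1, Hnf4a, Tat and Serpina1c, and 1 rose, Ttr. Of 6 macrophage markers measured 3 rose, Itgax, Cd68 and Trem2, and of 6 stellate markers 3 rose, Col1a1, Col3a1 and Lrat; 0 of either list fell. Lyve1, Spp1, Cfd and Fabp4 also rose, of the endothelial, cholangiocyte and adipocyte lists. The summed stellate level was 13.63 to 14.17 in AMLN Control, against 12.87 to 13.37 in chow Control, the cholangiocyte level 12.07 to 12.68 in AMLN Control, against 10.08 to 10.48 in chow Control, and the adipocyte level 10.62 to 10.76 in AMLN Control, against 8.71 to 9.03 in chow Control. The part of these cells in the results for the 7 genes was not tested in any comparison.

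Other genes of fatty acid synthesis and supply did not all move with the 7. Of 31 listed, 26 were measured. In AMLN LiFKO 10 fell and 6 rose, with a median of -0.17 against -0.02 over all genes, of which 9.63% fell and 10.1% rose. In chow LiFKO 4 fell and 11 rose, with a median of 0.24 against -0.05 over all genes, of which 13.2% fell and 12.5% rose. The desaturase Scd1 fell by 1.70 (SE 0.30), the elongase Elovl6 by 1.73 (SE 0.25), and Pgd, which makes NADPH in the pentose phosphate pathway, by 1.18 (SE 0.13) in AMLN LiFKO. Acacb, the acetyl-CoA carboxylase of the mitochondrial surface, rose by 1.43 on AMLN diet (SE 0.17, adjusted p = 6.32e-05) and by 4.01 on chow (SE 0.17, adjusted p = 4.39e-09). Acaca, the cytosolic carboxylase that feeds malonyl-CoA to Fasn, was not called, at -0.39 on AMLN diet (adjusted p = 0.171) and 0.19 on chow (adjusted p = 0.519). Idh2, the mitochondrial isocitrate dehydrogenase that makes NADPH, rose by 1.73 in AMLN LiFKO (SE 0.14). Mid1ip1, a relative of Thrsp whose product activates acetyl-CoA carboxylase, fell by 1.40 on AMLN diet (SE 0.27, adjusted p = 0.00186) and by 1.69 on chow (SE 0.27, adjusted p = 0.00033).

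In the libraries labelled DKO 8 of the 26 were higher and 4 lower than in AMLN LiFKO, with a median of 0.28 against 0.02 over all genes, of which 5.05% were higher and 5.97% lower. Scd1 was 1.70 higher (SE 0.30) and Elovl6 1.68 higher (SE 0.25), while Acacb and Idh2 were lower (difference -1.31, SE 0.17, and -1.14, SE 0.14). With AMLN diet 17 of 26 rose and 0 fell in Control (11.2% and 11.6% of all genes), and 6 rose and 1 fell in LiFKO (1.58% and 2.16% of all genes). The LiFKO effect was lower on AMLN diet than on chow for 6 of 26, where 0.760% of all genes were called that way, and higher for 0, where 0.282% were. Among the 6 were Acacb (-2.58, SE 0.25) and Pgd (-1.36, SE 0.18).

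**Figure D3:**
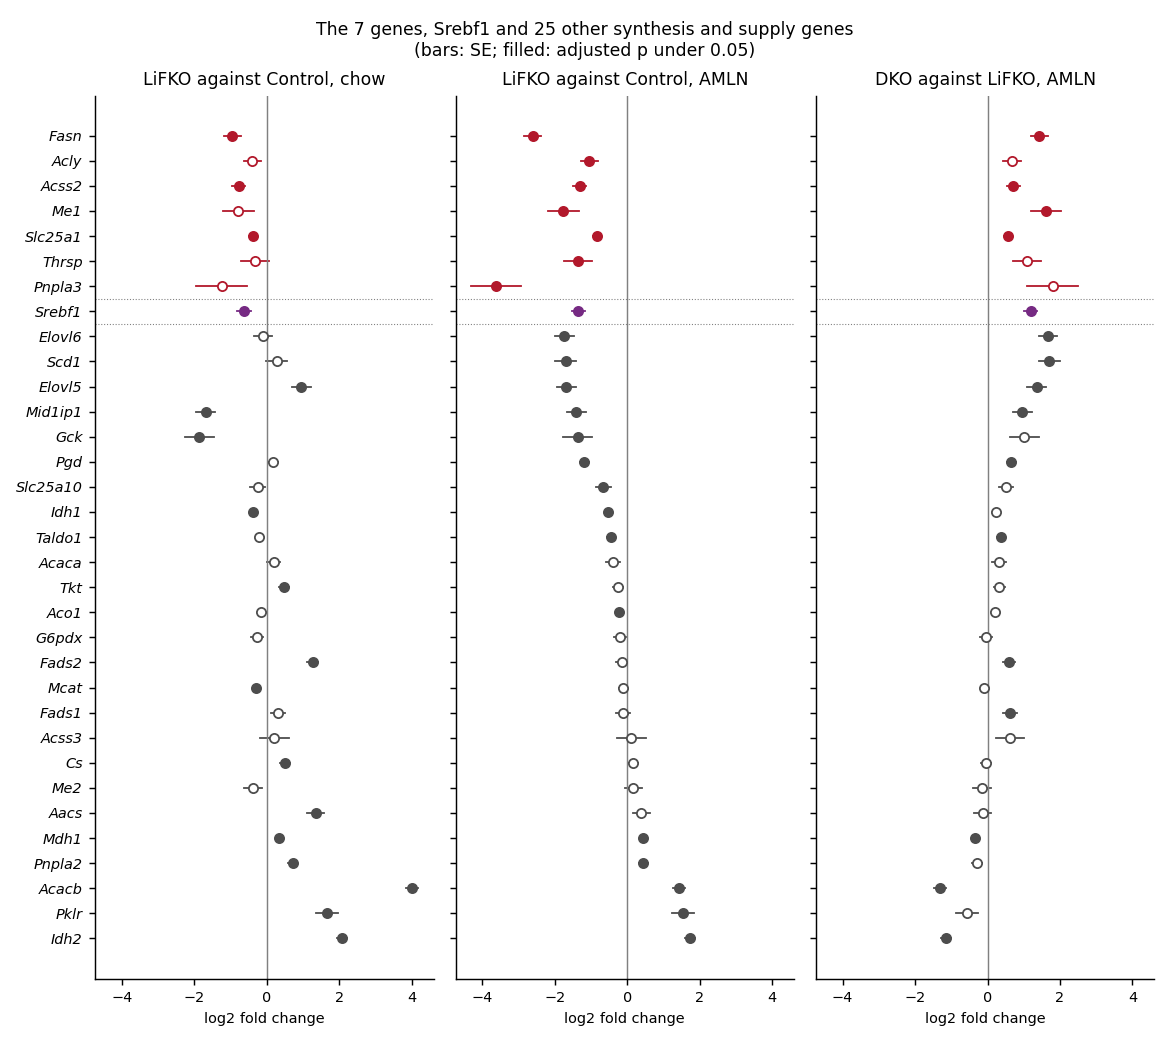
Log2 fold changes with SE for the 7 genes (red), Srebf1 (purple) and 25 of the 26 other synthesis and supply genes (grey), ordered by LiFKO against Control on AMLN diet; filled points have a limma adjusted p under 0.05. The 7 genes and Srebf1 lie left of 0 for LiFKO on both diets and right of 0 for DKO against LiFKO, while the 25 others lie on both sides.

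Among 19 regulators, Srebf1, which encodes SREBP-1, was called in 5 of the 7 comparisons, in the direction of Fasn; the exceptions were DKO against Control (-0.16, adjusted p = 0.751) and the difference of LiFKO effects (-0.72, adjusted p = 0.195). It was 14.72, 14.74 and 14.78 in the libraries labelled DKO and 13.29, 13.62 and 13.75 in AMLN LiFKO, against 14.93, 14.72 and 15.07 in AMLN Control. On chow it was 12.33, 12.24 and 12.63 in LiFKO, against 13.54, 12.84 and 12.72 in Control. The libraries labelled DKO lay at the level of AMLN Control and above AMLN LiFKO. Flcn loss lowered Srebf1 on AMLN diet (difference -1.35, SE 0.18, adjusted p = 0.000158) and on chow (difference -0.63, SE 0.18, adjusted p = 0.0211). The chow call was lost without chow LiFKO replicate 1 or 2 or chow Control replicate 1, with differences of -0.79 to -0.375 over 6 such fits. Srebf1 was 1.19 higher in DKO than in AMLN LiFKO (SE 0.18, adjusted p = 0.000842). Mlxipl, which encodes ChREBP, fell on chow by 0.68 (SE 0.18, adjusted p = 0.011) and differed by -0.08 on AMLN diet (adjusted p = 0.802). Insig1, which holds SREBP precursors in the endoplasmic reticulum, was lower in AMLN LiFKO than in AMLN Control (difference -1.23, SE 0.25, adjusted p = 0.0029). Srebf2 was not called in any of the 7 comparisons (adjusted p of 0.142 or more). In all, 4 of 19 fell and 0 rose in AMLN LiFKO, where 9.63% of all genes fell and 10.1% rose. In chow LiFKO 6 of 19 fell and 1 rose, where 13.2% of all genes fell and 12.5% rose.

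The genes most like Fasn over the 15 libraries were found by centring each gene on its mean and taking the root mean square difference from Fasn in log2 units. The closest 5 outside the 7 were Psat1, an enzyme of serine synthesis (0.47), Gpc1, a glypican (0.50), Srebf1 (0.51), Unc5b, a netrin receptor (0.58), and Wdr67 (0.61). Among 13814 other genes Me1 was in place 10 (0.63), Thrsp in place 11 (0.63), Acss2 in place 149 (0.89), Acly in place 264 (0.95), Slc25a1 in place 413 (1.00) and Pnpla3 in place 783 (1.08). The measure depends on the size of a gene's swings as well as on their order. Within the 7, Acly, Acss2 and Slc25a1 were closest to each other, with differences of 0.26 to 0.34, and Pnpla3 was farthest from Slc25a1, at 1.82. The closest 5 were picked from the same 15 libraries, so differences like those of Fasn were largely fixed by the choice. Their values and calls describe the likeness and are not a separate result. Gpc1 fell by 2.34 in AMLN LiFKO (SE 0.22, limma adjusted p = 7e-06) and was 2.13 higher in DKO than in LiFKO (SE 0.22, limma adjusted p = 3.2e-05). Unc5b (1.24) and Srebf1 (1.19) were also called higher in DKO than in LiFKO. Psat1 (0.66, adjusted p = 0.331) and Wdr67 (0.77, adjusted p = 0.07) were not. The group means of Psat1, 4.05 to 6.76, lay below the lower quartile of the libraries, 8.01 to 8.03.

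The ChIP-seq peak lists were called by the authors on pooled libraries, 4 in a chow list and 3 in an FPC list, so no comparison between lists has a replicate check. Scores are the authors' HOMER peak scores and are used within a list. The headers of 4 lists name libraries that go against the labels. Those of TFE3 in FPC LiFKO, FPC Control and FPC Control+1c name 1 library marked as input among the 3 pooled, and that of HA in LiFKO+1c names 1 library marked as TFE3 from a Control+1c liver. Whether names or libraries were exchanged cannot be told apart, and the lists could not be made again without them. The headers of TFE3 in LiFKO+1c and of HA in Control+1c hold no such name, and the chow headers name no libraries. Lists also differ in length, with 26445 TFE3 peaks in chow LiFKO against 11385 in chow Control, and 27751 in FPC LiFKO against 9647 in FPC Control. A peak was counted at a gene when it touched the gene body or the 10 kb on either side.

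TFE3 peaks lay at most of the 7 genes in every list, as they did at a large share of all genes. In chow LiFKO 7 of 7 had one (73.8% of all genes), against 6 of 7 in chow Control (48.2%), where Me1 had none. On FPC diet 7 of 7 had one in LiFKO (71.7%), against 5 of 7 in Control (41.6%), where Acss2 and Slc25a1 had none. With HA-nSREBP-1c 7 of 7 had one in LiFKO+1c (79.8%), against 4 of 7 in Control+1c (43.7%), namely Fasn, Acss2, Thrsp and Pnpla3. Shares of the 7 genes stand near those of all genes in the LiFKO lists, where most genes had a peak.

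HA peaks, which mark nSREBP-1c, were at fewer genes overall than TFE3 peaks, and at 3 or 6 of the 7 by genotype. In LiFKO+1c 3 of 7 had one, Fasn, Acly and Acss2, where 7.24% of all genes did, and in Control+1c 6 of 7 had one, all but Me1, where 9.39% of all genes did. Within 2 kb of the start the counts were 3 of 7 in LiFKO+1c (1.75% of 9914 genes with a known start) and 5 of 7 in Control+1c (2.58%), Thrsp being the gene whose HA peak lay farther off. Within each HA list, Acss2 held the peak of highest rank among the 7 genes, with centres 208 bases upstream of the start in LiFKO+1c and 245 bases upstream in Control+1c. Among the 1367 HA peaks of LiFKO+1c the start peak of Acss2 was in place 11 by score (28.1), that of Acly in place 41 (19.3) and that of Fasn in place 339 (9.07). Among the 1702 HA peaks of Control+1c the order at the starts was Acss2 in place 6 (28.3), Acly in place 83 (15.8), Slc25a1 in place 238 (11.4) and Fasn in place 928 (6.04). Places and scores are not compared between the lists. The HA peak of Slc25a1 was centred 68 bases upstream in Control+1c, and LiFKO+1c had none there. The absence of an HA peak at Slc25a1, Thrsp and Pnpla3 in LiFKO+1c rests on the list whose header names a Control+1c library.

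**Figure D4:**
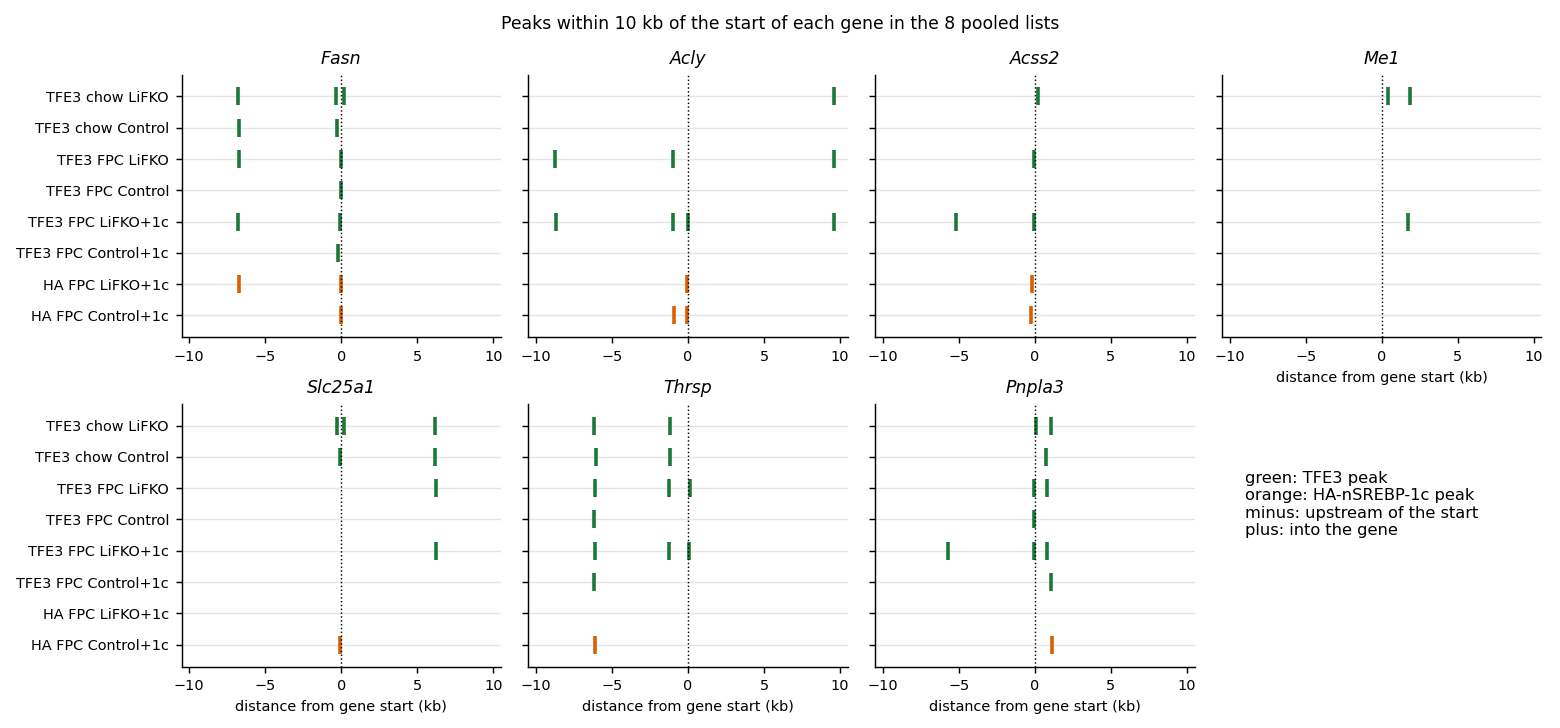
Centres of peaks within 10 kb of the start of each gene, in kb along the gene, in 6 TFE3 lists (green) and 2 HA lists (orange); peaks farther off are not drawn. Fasn has a peak within 0.4 kb of its start in all 8 lists, and Me1 has no HA peak.

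Fasn carried peaks at its start in all 8 lists (mm9 chromosome 11, 120685246 to 120685911), with centres from 326 bases upstream to 153 bases into the gene. TFE3 peaks there were centred at -326 and 153 in chow LiFKO, against 1 peak at -279 in chow Control. Within the chow LiFKO list the peak at -326 was in place 2191 of 26445 by score and that at 153 in place 10608. A further site centred 6716 to 6782 bases upstream (mm9 chromosome 11, 120692124 to 120692356) had TFE3 peaks in chow LiFKO, chow Control, FPC LiFKO and FPC LiFKO+1c, and an HA peak in LiFKO+1c. Thrsp had a site 6.1 kb upstream (mm9 chromosome 7, 104572219 to 104572497) with peaks in all 6 TFE3 lists and in HA Control+1c, and a second TFE3 site 1.2 kb upstream in 4 lists. Acly had a TFE3 peak over its start in LiFKO+1c alone of the 6 TFE3 lists (score 33.2, place 3626 of 35325). Farther upstream of Acly, TFE3 peaks were centred at -1015 in FPC LiFKO and at -977 in FPC LiFKO+1c. Acss2 had TFE3 within 300 bases of its start in chow LiFKO, FPC LiFKO and FPC LiFKO+1c and in no Control list. Its sites beyond 50 kb lay nearer to the start of Gss, and those of Fasn past its 3′ end nearer to Dus1l.

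Overlap of the 2 factors, at least 1 base shared by a TFE3 and an HA peak of the same genotype, differed by gene. In LiFKO+1c it occurred at 3 of 7 genes, Fasn, Acly and Acss2 (6.09% of all genes), and in Control+1c at 2 of 7, Thrsp and Pnpla3 (2.89%). In LiFKO+1c the Fasn start peaks shared 68 bases and those farther upstream 109, the Acly start peaks shared 129 bases and those 22842 to 22847 bases into the gene 165, and the Acss2 peaks shared 13. In Control+1c the Thrsp peaks shared 127 bases and the Pnpla3 peaks, 1.1 kb into the gene, 82. At the Fasn start in Control+1c the centres of the TFE3 and HA peaks were 229 bases apart and the peaks did not touch. Over the genome 1093 of 1367 HA peaks (80.0%) met a TFE3 peak in LiFKO+1c, and 472 of 1702 (27.7%) in Control+1c, with 35325 and 10827 TFE3 peaks in the lists. These shares, and the 3 of 7 and 2 of 7 genes above, rest on lists with doubtful headers: HA in LiFKO+1c names a library marked TFE3 among those pooled, and TFE3 in Control+1c names an input among those pooled and libraries marked TFE3 as its background. The part of these libraries in the shares was not tested. The authors' list of TFE3 peaks that differed between LiFKO+1c and LiFKO holds 96 peaks, of which 0 lay within 10 kb of the 7 genes. With 50 kb on either side 1 lay at Pnpla3, and the authors name Pnpla5 for it. The share of all genes with such a peak was not computed. A list of 96 peaks can reach few of 13815 genes, so these counts are not a result about the 7.

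The peaks and the expression values of the genes are set side by side here without a test. Me1, with no HA peak and no CCAAT match in the promoter shown above, fell by 1.76 in AMLN LiFKO, between Fasn (2.61) and Acss2 (1.31). Slc25a1, Thrsp and Pnpla3 differed by -0.84, -1.36 and -3.62 in AMLN LiFKO. Within 10 kb these genes had an HA peak in Control+1c but none in LiFKO+1c. With 50 kb on either side Pnpla3 had one in LiFKO+1c as well. Fasn, Acly and Acss2, with both factors at the start in LiFKO+1c, differed by -2.61, -1.05 and -1.31. The peaks of the 2 factors at Acss2 shared only 13 bases. RNA-seq came from fasted mice on AMLN diet or chow and the HA lists from fed mice after 9 days of FPC diet, and no expression was measured in the ChIP-seq livers.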

How the data were processed

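RNA-seq was measured in 15 liver libraries and ChIP-seq in 39 ChIP and input libraries. The authors deposited log2 expression values that were quantile normalized across libraries; the offset is not stated, so depth and counting error are unknown. Per the submitters' processing notes, the tools named for RNA-seq are bcl2fastq 2.17, Trimmomatic 0.32, STAR 2.6.0c, SAMtools, featureCounts and limma, and for ChIP-seq Trimmomatic 0.32 or 0.36, Bowtie2 2.2.8 or 2.2.6, SAMtools, bedtools and HOMER 4.11 or 4.4, with build mm9. The deposited peak lists give a HOMER score for each peak of pooled libraries, per the file headers, and lists of different length were compared by presence of peaks only. 6 per-sample columns were not used.

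Differences were tested on the log2 values with limma 3.58.1 in R 4.3.3, with group means over all 15 libraries (10 residual degrees of freedom), a trended prior variance and Benjamini-Hochberg adjustment over all 13815 genes at 0.05. The script was tested on simulated data. Peaks were assigned to gene bodies with 10 kb on either side, in mm9; promoters come from a RefSeq table of GRCm38.p6, a different annotation, and no peak sequence was read. Promoter entries were found for 7 of 7 genes, with 2 for Me1, of which 1 is shown. Same-numbered libraries were checked for pairing by the correlation of their deviations from group means. For LiFKO and Control on chow all 3 same-number correlations were over 0.1 (0.113, 0.17 and 0.237), and the replicate block changed no call of the 7 genes there; over all 30 same-number pairs they were -0.185 to 0.237. The 7 genes are named throughout; from the lists of synthesis genes and regulators, up to 5 with the smallest p in a comparison may be named, and Srebf1, Srebf2, Mlxipl, Acaca, Acacb, Scd1, Mid1ip1 and G6pdx anywhere, with the 5 genes most like Fasn. Results for 1 gene of the synthesis list are not reported here. The genes and lists were chosen with earlier results of these data known. Alternatives tried were a replicate block, no variance trend, only the groups compared, library weights, low genes left out, each library left out, and for peaks other windows, scores and overlaps.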

Additional observations from a re-analysis of the deposited data

Results flagged for a closer look

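The effect of Flcn loss on Fasn differed between the diets by a test of the difference itself. LiFKO minus Control was -2.61 on AMLN diet and -0.95 on chow in log2 units, a difference of -1.67 (SE 0.34, 95% interval -2.40 to -0.93, limma adjusted p = 0.0346). The call was lost in 9 of 12 fits that left out a library, with adjusted p up to 0.0964, and without a variance trend (adjusted p = 0.0762). Groups of 3 libraries are too small for a check of single outlying libraries.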

How the results depend on the processing

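Of 623 refits of single genes under alternative settings, 558 kept direction and side of the threshold, 46 lost and 8 gained a call, and 11 turned in sign, each of them from a difference that was not called. Without a variance trend 0 of the 7 genes were called for AMLN against chow in LiFKO, 0 for DKO against Control and 0 for the difference of LiFKO effects, and with only the groups compared 0 for AMLN against chow in LiFKO and 0 for DKO against Control; the cause was not tested. Leaving out 1 library gave 2 to 4 called genes for LiFKO on chow, 6 to 7 for LiFKO on AMLN diet, 5 to 7 for AMLN diet in Control, 0 to 3 for AMLN diet in LiFKO, 2 to 4 for DKO against LiFKO, 0 to 1 for DKO against Control and 0 to 1 for the difference of effects.

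The replicate block over all libraries gave 3, 7, 6, 2, 4, 1 and 1 called genes in these 7 comparisons and changed no count. A replicate block within each diet, chosen after seeing the data, gave 3, 7, 6, 3, 6, 1 and 1, with Me1 added for AMLN diet in LiFKO and Thrsp and Pnpla3 for DKO against LiFKO. Of 15 libraries, 7 were closest by correlation to libraries of their own number.

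The differences that turned were Thrsp in chow LiFKO (0.057 without chow LiFKO replicate 2, with a range of -0.732 to 0.057 over the libraries left out), Me1 in DKO against Control (0.006 without AMLN Control replicate 1 and 0.11 without DKO replicate 1, range -0.375 to 0.11), and 3 genes for AMLN diet in LiFKO. Acly was -0.053 without chow LiFKO replicate 1 and -0.172 without AMLN LiFKO replicate 2, with a range of -0.172 to 0.114. Acss2 was -0.056 and -0.084 without chow LiFKO replicate 1 or 2, and -0.023 without AMLN LiFKO replicate 1, with a range of -0.084 to 0.265. Slc25a1 was 0.019 with library weights, 0.078 without chow LiFKO replicate 3 and 0.006 without AMLN LiFKO replicate 3, with a range of -0.098 to 0.078. Leaving out the 25% of genes with the lowest means removed Pnpla3.

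With the upper 50% of peaks by score, genes with a TFE3 peak numbered 3 of 7 in chow Control (33.8% of all genes), 2 in FPC Control (28.7%) and 2 in Control+1c (30.4%), and with peaks within 2 kb of the start 2 in FPC Control (20.7%) and 2 in Control+1c (20.7%), near the shares over all genes. Genes with both factors at a site in Control+1c numbered 1 within 2 kb (0.767%), 1 in the upper 50% by score (1.32%) and 1 with 50% of the shorter peak shared (2.74%). In LiFKO+1c they numbered 3 within 2 kb (1.48%) and 3 in the upper 50% by score (3.15%). With 50% of the shorter peak shared they numbered 2, Fasn and Acly (5.62%), and Acss2 was lost.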
